A study of Mus musculus with 8 samples.

Results

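The 32 genes described here carry out the unfolded protein response and the integrated stress response in macrophages. They were chosen as a list of symbols known for these roles, and all 32 were present among the 24421 gene symbols of every library. All 32 also passed the filter on low counts that left 13821 genes for testing. They were divided by role into 18 genes of protein folding and degradation at the endoplasmic reticulum (ER), 4 genes for the stress sensors and the transcription factor XBP1, and 10 genes of the ATF4 pathway.

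RNA was sequenced from primary mouse macrophages kept as 3 groups, all from mice on a normal diet. WT was wild type (3 libraries). LysM-DKO (3 libraries) is the label of the group that the design text describes as lacking epsins, the endocytic adaptor proteins. LysM is the gene whose promoter is commonly used to drive Cre recombinase in myeloid cells, so a deletion made that way spares other cell types; the labels do not describe the alleles. ABCG1KO (2 libraries) lacked ABCG1, a transporter that exports cholesterol. The age and sex of the mice and the tissue of origin were not given in the sources used here, and nothing stated whether the libraries of a group came from separate animals, so p-values measure the spread between these libraries, which may be partly technical.

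The ER folds secreted and membrane proteins. When unfolded chains build up there, the sensors IRE1 (encoded by Ern1), ATF6 and PERK (encoded by Eif2ak3) start programs that raise chaperones and degradation factors. PERK and related kinases also phosphorylate the translation factor eIF2, which slows protein synthesis while favouring translation of ATF4, an activator of genes for amino acid synthesis, amino acid transport and stress. In macrophages, loading with free cholesterol is a known trigger of these programs. RNA counts per gene do not show sensor phosphorylation, the spliced form of Xbp1 or the amount of any protein.

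Between 29567615 and 41888516 reads per library were assigned to genes. Abcg1 was at 60.4 and 73.4 CPM (read counts scaled to the TMM-adjusted library total) in the ABCG1KO libraries and at 345 to 405 in WT. The epsin gene Epn1 was at 191 to 229.7 CPM in WT, 155 to 183 in LysM-DKO, and 182 and 155 in ABCG1KO. Epn2, another epsin gene, was at 4.97 to 8.86 CPM in WT, 5.67 to 13.2 in LysM-DKO, and 18.6 and 18.5 in ABCG1KO. Neither therefore set LysM-DKO apart from both other groups, and these gene-level counts do not show whether a deleted exon is missing. The macrophage markers Csf1r, Adgre1 and Cd68 were at 425 CPM or more in every library. In ABCG1KO against WT, Csf1r and Adgre1 were higher and Cd68 was lower (edgeR adjusted p = 0.0172, 0.0147 and 0.0192). The 8 macrophage markers summed to 18043 to 21157 CPM in WT, 10992 to 13064 in LysM-DKO, and 22244 and 18391 in ABCG1KO. Most of that sum was Lyz2, the LysM gene itself, at 13004 to 15709.5 CPM in WT and 6177 to 8105 in LysM-DKO (log2 fold change -1.09, edgeR adjusted p = 0.173). Fibroblast markers summed to 674 to 855 CPM in WT, 618 to 1477 in LysM-DKO, and 137 and 1126 in ABCG1KO. Markers of B cells and plasma cells summed to 307 to 526 CPM in WT, 171 to 240.2 in LysM-DKO, and 105 and 179 in ABCG1KO, and most of that was Sdc1, which other cells also express. All 8 tested were lower in LysM-DKO than in WT. Of these, 7 had an unadjusted p under 0.05 by edgeR, against 11.7% of all genes. At an adjusted p under 0.05 edgeR called 0 and DESeq2 called 5, against 0.0362% and 2.21% of all genes. Apart from Sdc1 these B cell and plasma cell markers were at 9.55 CPM or less in every library, and Cd79a and Mzb1 were at 0 in LysM-DKO 1. Markers of T cells and of neutrophils summed to 5.93 CPM or less in every library. Markers of resident peritoneal macrophages summed to 3.05 to 44.3 CPM in WT and LysM-DKO and to 1518 and 254 in ABCG1KO, and mast cell markers to at most 3.15 and to 47.3 and 8.07. The part of these cell types in the results below, the ER folding values included, was not tested. The X-inactivation transcript Xist was at 2697 or more counts in every WT library and absent from both ABCG1KO libraries, which carried Y-linked transcripts, so genotype and sex cannot be told apart in that comparison. LysM-DKO 1 also had the Y-linked pattern. Reads that did not map uniquely were 2.65% to 3.01% of reads in WT and LysM-DKO and 6.74% to 6.93% in ABCG1KO.

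Response elements in the gene promoters were read from the RefSeq promoter table (build GRCm38.p6), because members of each role group are commonly described as sharing them. The search covered both strands of the 250 bases before each annotated start, and 29 of the 32 members had at least one promoter in the table. The ER stress response element, searched as CCAAT and CCACG with 9 bases of any kind between them, is the sequence bound by ATF6 together with NF-Y. It was found in 8 of the 16 ER folding members with a promoter and in 0 of the 10 ATF4 pathway members, against 0.130% of 27025 genes with a promoter. The matches are shown 5′ to 3′ to show how the fixed outer parts, in capitals, enclose a spacer that differs from gene to gene:
Hspa5 (chr2:34772025-34772043, plus strand): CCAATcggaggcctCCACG
Hsp90b1 (chr10:86705638-86705656, minus strand): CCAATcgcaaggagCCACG
Hsp90b1 (chr10:86705533-86705551, plus strand): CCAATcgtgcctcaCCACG
Pdia6 (chr12:17266491-17266509, plus strand): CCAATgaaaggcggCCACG
Dnajc3 (chr14:118937827-118937845, plus strand): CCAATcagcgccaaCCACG
Creld2 (chr15:88819520-88819538, minus strand): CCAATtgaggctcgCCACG
Calr (chr8:84847075-84847093, plus strand): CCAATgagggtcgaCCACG
Canx (chr11:50325800-50325818, minus strand): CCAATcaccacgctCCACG
Syvn1 (chr19:6046532-6046550, plus strand): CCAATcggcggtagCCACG

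Hsp90b1 held the element 2 times. The C/EBP-ATF response element through which ATF4 acts with C/EBP partners was searched as TGATGNAA. It was found in Atf3, Asns and Chac1 among the 10 ATF4 pathway members and in Herpud1 among the 16 ER folding members, against 3.91% of all genes. The Asns match read TGATGaAA, starting 23 bases before the start, and the other 3 read TGATGcAA. The shorter elements TGACGTGG, associated with XBP1 and ATF6, and TGACGTCA, the cyclic AMP response core, share their first 6 letters and were found in 0 and 1 (Ppp1r15a) of these members, against 0.603% and 1.77% of all genes. The promoters of Syvn1 and Herpud1 are given in full because these ER genes had the 2 smallest adjusted p-values among the members in the ABCG1KO comparison, and capitals mark the ER stress response element in Syvn1 and the C/EBP-ATF match, on the opposite strand, in Herpud1:
Syvn1 (chr19:6046326-6046575, plus strand): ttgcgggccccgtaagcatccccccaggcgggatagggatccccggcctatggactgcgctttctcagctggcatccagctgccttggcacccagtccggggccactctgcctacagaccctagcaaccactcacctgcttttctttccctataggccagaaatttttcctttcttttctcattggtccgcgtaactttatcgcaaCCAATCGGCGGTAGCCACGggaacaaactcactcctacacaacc
Herpud1 (chr8:94386179-94386428, plus strand): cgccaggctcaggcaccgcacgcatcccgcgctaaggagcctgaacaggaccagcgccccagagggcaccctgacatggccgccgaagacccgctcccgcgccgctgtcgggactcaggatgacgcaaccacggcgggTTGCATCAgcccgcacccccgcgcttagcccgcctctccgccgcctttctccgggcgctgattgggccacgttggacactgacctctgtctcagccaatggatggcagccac

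These matches describe the letters of the reference genome. No binding was measured. The Herpud1 sequence above ends in ccaat and ccac, set apart by the same spacing as in the ER stress response element. The base that would complete or break the element lay outside the bases searched. Herpud1 was therefore not counted as holding the element, and whether it does was not tested.

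Levels per length, as CPM per kilobase of merged exons, placed the members over a wide range in WT. Calr, a calcium-binding lectin chaperone, was highest at 431.6 CPM per kilobase, and Atf3, a stress-induced transcription factor, was next at 286.0. Pdia3, a protein disulfide isomerase, was at 216.3, Hsp90b1, the ER form of HSP90, at 211.8, and Hspa5, the ER chaperone BiP, at 194.4 CPM per kilobase. The sensors were far lower, with Atf6 at 12.5, Eif2ak3 at 5.77 and Ern1 at 4.85. Trib3, a pseudokinase that binds AKT, was at 1.86 and Chac1, an enzyme that degrades glutathione, at 0.191 CPM per kilobase, the 2 lowest of the 32.

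**Figure D1:**
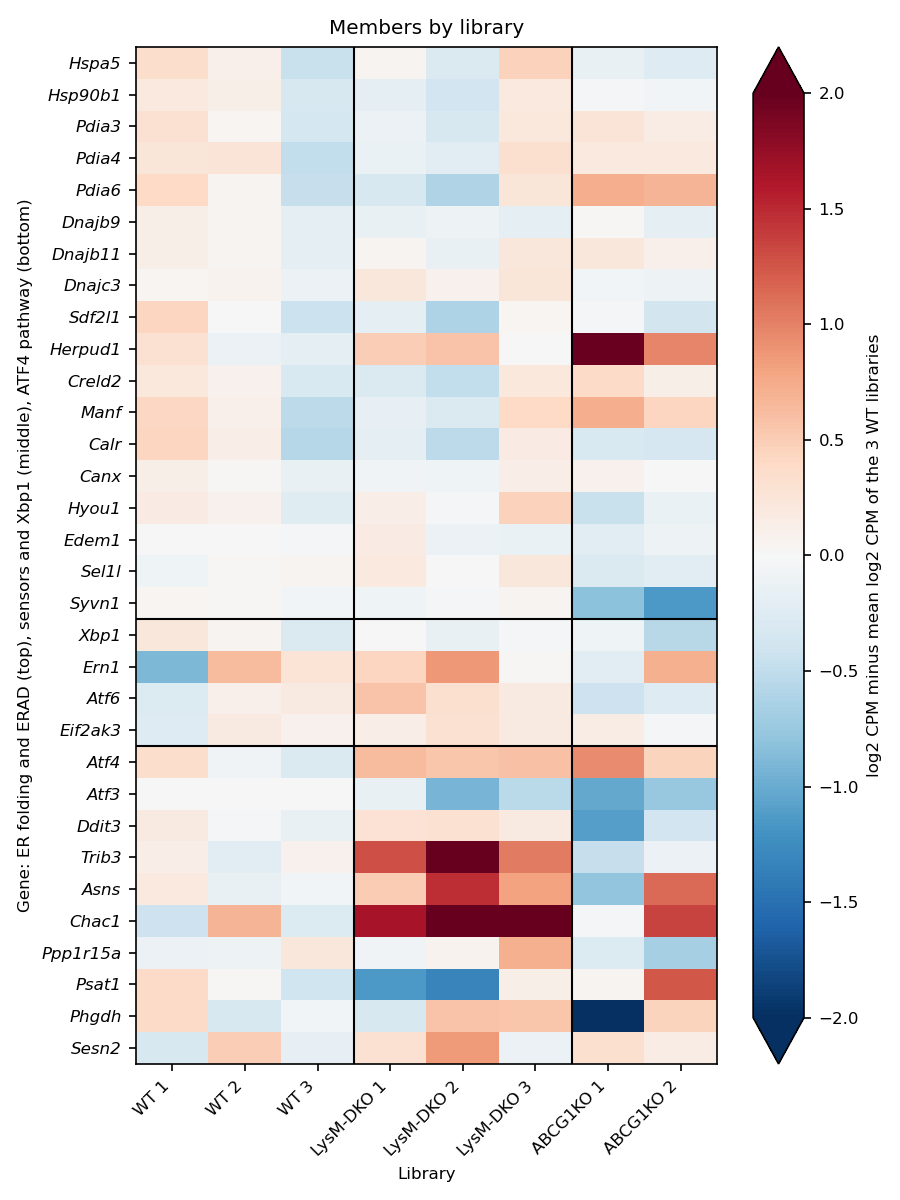
Level of each of the 32 genes (rows, by role) in each of the 8 libraries (columns), as the log2 ratio of CPM to the WT mean. The ER folding rows change together from library to library within WT and within LysM-DKO, and most ATF4 pathway rows are above the WT mean in the LysM-DKO columns.

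The levels of Hspa5 and Calr varied more between libraries of a group than between the means of WT and LysM-DKO. Hspa5 was at 1021, 857 and 588 CPM in WT, 834, 655 and 1099 in LysM-DKO, and 719.8 and 673 in ABCG1KO. The WT range enclosed both ABCG1KO libraries, and LysM-DKO 3 was the highest of all 8. Its log2 fold change was 0.07 (SE 0.251) in LysM-DKO and -0.24 in ABCG1KO, both against WT, and the first turned negative when either WT 3 (-0.12) or LysM-DKO 3 (-0.14) was left out. Calr followed the same order, at 1615, 1306 and 806 CPM in WT, 1056, 834 and 1335 in LysM-DKO, and 970.2 and 946 in ABCG1KO.

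Of the 18 ER folding members, 14 were highest in WT 1 among the WT libraries and 17 were lowest in WT 3. Among all genes tested, 32.7% were highest in WT 1 and 33.2% lowest in WT 3. In LysM-DKO, 15 of the 18 were highest in library 3 and 14 lowest in library 2, against 36.9% and 29.3% of all genes. The spread between the highest and lowest WT library was 2.00-fold for Calr, 1.92-fold for Manf, a secreted ER stress protein, 1.82-fold for Pdia6, 1.80-fold for Sdf2l1 and 1.73-fold for Hspa5. Among the genes of ER-associated degradation it was 1.02-fold for Edem1, 1.07-fold for Syvn1, 1.10-fold for Sel1l and 1.40-fold for Herpud1. The median spread of the 18 was 1.42-fold in WT and 1.44-fold in LysM-DKO, beside 1.40-fold and 1.39-fold for all genes. Fibroblast markers, whose cells secrete much collagen, summed to 674, 736 and 855 CPM in WT 1, 2 and 3 and to 618, 729 and 1477 CPM in LysM-DKO 1, 2 and 3. Their sum was thus lowest in the WT library with the highest chaperones and highest in the LysM-DKO library with the highest chaperones, and their part in the chaperone levels was not tested.

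In LysM-DKO against WT, 0 of the 32 members passed edgeR's quasi-likelihood test at a Benjamini-Hochberg adjusted p under 0.05, where 5 genes (0.0362%) passed among all tested. At an unadjusted p under 0.05 there were 4 members, namely Trib3, Chac1 and Atf4 on the higher side and Atf3 on the lower, against 11.7% of all genes, which is near the members' share. DESeq2 called 1 member, Trib3 (adjusted p = 0.00313), against 2.21% of all genes. The 2 role groups had different medians in this comparison. The 18 ER folding members had a median log2 fold change of -0.02, from -0.27 to 0.36, with 6 above 0. The 10 ATF4 pathway members had a median of 0.33, from -0.67 to 2.26, with 8 above 0. The median of all genes was 0.02, and 52.5% of all genes were above 0.

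The contrast between the groups was visible in each LysM-DKO library. On the log2 scale relative to the WT mean, the ATF4 pathway median minus the ER folding median was -0.05, -0.12 and 0.18 in WT 1 to 3. It was 0.40, 0.75 and 0.37 in LysM-DKO 1 to 3, above every WT library. In ABCG1KO it was -0.37 and 0.38, so these 2 libraries stood on either side of WT. Each gene was centred on the mean of these same WT libraries, which holds the WT values near 0. Standing outside the WT range is therefore easier for a library of another group. As the members were also chosen with earlier results known, these medians are a description without a p-value.

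**Figure D2:**
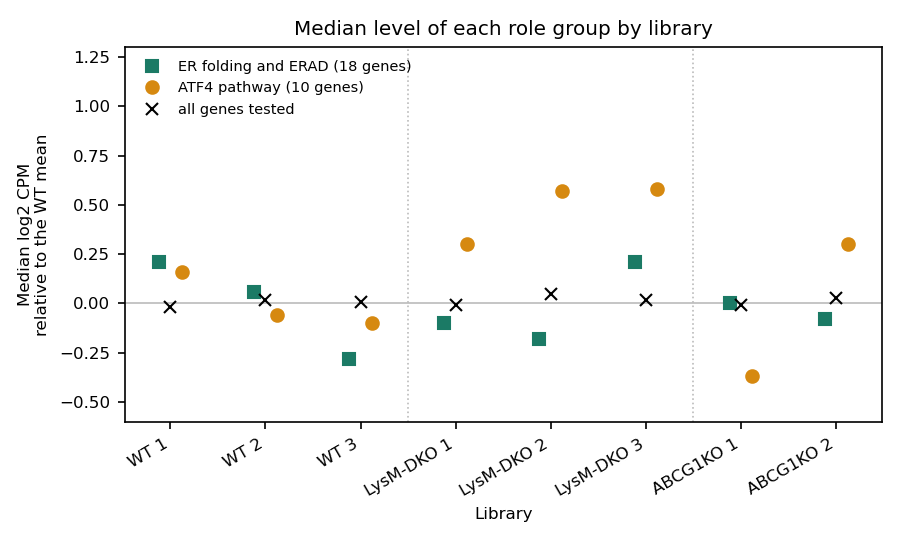
Median log2 CPM relative to the WT mean (vertical axis) in each library (horizontal axis) for the 18 ER folding genes (squares), the 10 ATF4 pathway genes (circles) and all genes tested (crosses). The circles stand 0.37 to 0.75 above the squares in LysM-DKO, while all genes stay between -0.02 and 0.05.

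Trib3 (chr2:152337422-152344032, minus strand, GRCm38) had the smallest p of the members in LysM-DKO against WT. It was at 4.34, 3.37 and 4.17 CPM in WT, 9.72, 20.5 and 8.15 in LysM-DKO, and 2.85 and 3.63 in ABCG1KO. All 3 LysM-DKO libraries were above all 5 others, and LysM-DKO 2 was the highest. The log2 fold change was 1.69 ± 0.373 (SE) at an adjusted p of 0.263 by edgeR. Without LysM-DKO 2 it was 1.16. Chac1 was at 0.205, 0.497 and 0.233 CPM in WT, 1.02, 1.34 and 2.17 in LysM-DKO, and 0.282 and 0.826 in ABCG1KO. It had no overlap between WT and LysM-DKO, but rested on 7 to 18 counts per WT library and 42 to 87 per LysM-DKO library, and its log2 fold change of 2.26 (SE 0.671) had an edgeR adjusted p of 0.354.

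Asns, which makes asparagine, was at 10.1, 8.01 and 8.57 CPM in WT, 12.6, 24.7 and 15.5 in LysM-DKO, and 5.11 and 19.4 in ABCG1KO. The LysM-DKO libraries were above all WT libraries, and the ABCG1KO libraries lay on both sides of WT. The log2 fold change in LysM-DKO was 0.98 ± 0.458 (SE) at an adjusted p of 0.449 by edgeR. Atf4 itself was at 183, 136 and 117 CPM in WT, 222, 209.7 and 215 in LysM-DKO, and 276 and 195 in ABCG1KO. Every LysM-DKO and ABCG1KO library was above every WT library, and the LysM-DKO libraries were close together. The log2 fold change was 0.57 (SE 0.197, adjusted p = 0.358) in LysM-DKO and 0.70 (SE 0.217, adjusted p = 0.0633) in ABCG1KO, both by edgeR and both against the same WT libraries.

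Ddit3 (chr10:127290774-127296288, plus strand), which encodes the transcription factor CHOP, was at 30, 25.7 and 23.8 CPM in WT, 32.3, 32.6 and 30 in LysM-DKO, and 12.3 and 20.2 in ABCG1KO. The lowest LysM-DKO library was level with the highest WT library to the digits given and above it before rounding, and both ABCG1KO libraries were below every other library. Its log2 fold change was 0.26 (SE 0.194) in LysM-DKO and -0.70 (SE 0.222) in ABCG1KO, with edgeR adjusted p-values of 0.602 and 0.066. Its exons overlap those of Mars on the opposite strand over 3.97% of their length. Where strand was not used, reads there could be set aside as ambiguous, a counter that held 0.614% to 0.98% of reads per library.

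Atf3 (chr1:191170296-191218039, minus strand, GRCm38) was lower in every LysM-DKO and ABCG1KO library than in WT. It was at 622, 612 and 613 CPM in WT, 555, 324 and 424 in LysM-DKO, and 302 and 364 in ABCG1KO. The WT libraries were nearly equal, and all 5 others were below them. The log2 fold change in LysM-DKO was -0.50 ± 0.201 (SE) at an adjusted p of 0.407 by edgeR. Atf3 fell in ABCG1KO to 54.1% of WT, a log2 fold change of -0.89 ± 0.23 (SE) at an adjusted p of 0.0354 by edgeR. That call was lost on leaving out any 1 of the 5 libraries compared, with adjusted p between 0.0639 and 0.182, and with library size as the only scaling (adjusted p = 0.0607).

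The remaining ATF4 pathway members had no common direction in LysM-DKO. Ppp1r15a, a regulatory subunit of the phosphatase that dephosphorylates eIF2, had a log2 fold change of 0.27, and Sesn2, a sensor of leucine, of 0.36. Phgdh and Psat1 catalyse successive steps of serine synthesis, and their log2 fold changes were 0.30 and -0.67. Psat1 was at 30, 23.5 and 17.4 CPM in WT, 10.4, 9.21 and 25 in LysM-DKO, and 23.9 and 54.7 in ABCG1KO, with overlap between all groups. Phgdh shares 47.8% of its 50-base stretches with transcripts of other genes, so its counts are uncertain.

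In the 8 members whose groups did not overlap between LysM-DKO and WT, against 21.0% of all genes (11.0% higher and 9.98% lower), the higher side held Atf4, Ddit3, Trib3, Asns and Chac1 of the ATF4 pathway, Dnajc3 of the ER folding group and Atf6 of the sensors. The lower side held only Atf3. The share of the 32 was near that of all genes, while 6 of the 8 were among the 10 ATF4 pathway members. Dnajc3, a co-chaperone that also inhibits PERK, was at 131, 133 and 118 CPM in WT and 149, 135 and 151 in LysM-DKO.

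**Figure D3:**
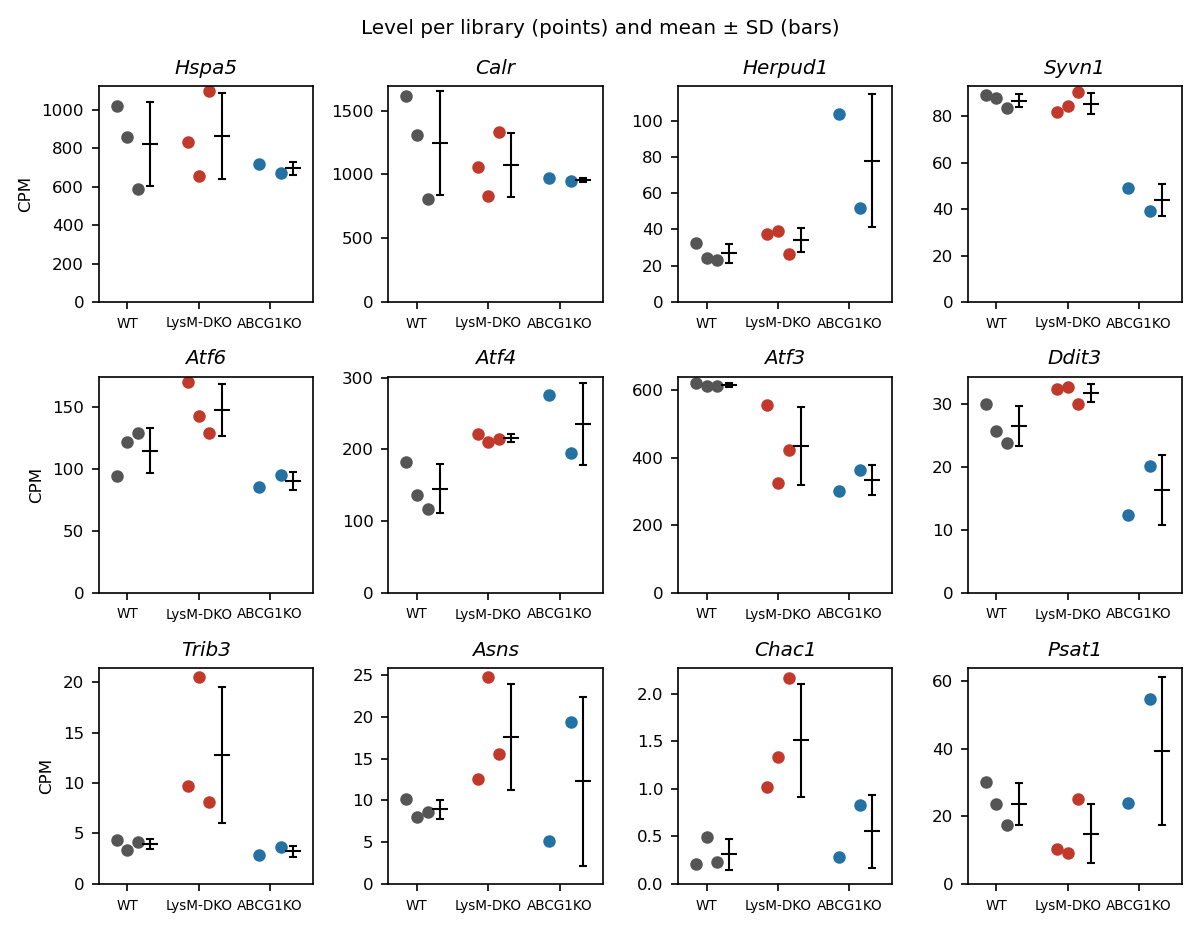
CPM (vertical axis, from 0) of 12 of the genes in each library (points) with the mean and SD of each group (bars; WT and LysM-DKO n = 3, ABCG1KO n = 2). Syvn1, Herpud1 and Ddit3 separate ABCG1KO from both other groups. Trib3, Chac1 and, narrowly, Atf6 separate LysM-DKO from both other groups.

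Among the sensors, Atf6 was at 94.4, 122 and 129 CPM in WT, 170.3, 143 and 129.7 in LysM-DKO, and 85.5 and 95.4 in ABCG1KO. The lowest LysM-DKO library was next to the highest WT library, and ABCG1KO and WT overlapped. The log2 fold change was 0.36 (SE 0.161) in LysM-DKO and -0.35 in ABCG1KO against WT. Xbp1 was at 191, 169 and 134 CPM in WT, 161, 147 and 161 in LysM-DKO, and 153 and 110.5 in ABCG1KO, with overlap between all 3 groups. Its log2 fold change was -0.07 (SE 0.175) in LysM-DKO, where its sign turned with library size as the only scaling (0.08), and -0.32 in ABCG1KO. Ern1 ranged from 19.3 to 56 CPM within WT alone, and Eif2ak3 from 28.9 to 39. Of the 4 genes, 0 passed in either comparison against WT.

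In ABCG1KO against WT, 3 of the 32 members passed, where 16.0% of all genes did, so the share of members was below that of all genes. They were 1 gene that rose, Herpud1, against 7.21% of all genes, and 2 that fell, Syvn1 and Atf3, against 8.83%. At an unadjusted p under 0.05 there were 5, with Atf4 and Ddit3 added, against 31.5% of all genes, and DESeq2 called the same 5, against 23.5%. The ER folding median log2 fold change was -0.07 and the ATF4 pathway median -0.05, beside 0.01 for all genes. In these groups 8 of 18 and 5 of 10 members were above 0, against 50.8% of all genes. The ATF4 pathway median depended on the library, at 0.26 without ABCG1KO 1 and -0.38 without ABCG1KO 2.

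Syvn1 encodes HRD1, the ubiquitin ligase of ER-associated degradation. It was at 89, 87.8 and 83.4 CPM in WT, 81.8, 84.4 and 90.4 in LysM-DKO, and 48.9 and 39.2 in ABCG1KO. WT and LysM-DKO overlapped within a narrow range, and both ABCG1KO libraries were well below them. Syvn1 fell to 50.7% of WT in ABCG1KO, a log2 fold change of -0.98 ± 0.139 (SE) at an adjusted p of 0.00345 by edgeR, and it passed in every alternative run, with log2 fold changes from -1.16 to -0.74. In LysM-DKO its log2 fold change was -0.02, or 0.13 with library size as the only scaling. Only 0.788% of its 50-base stretches occur in transcripts of other genes, and 1.87% of its exon length overlaps Mrpl49 on the opposite strand. In bulk RNA, fewer cells of a type and less RNA per cell cannot be told apart.

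Herpud1 encodes a membrane protein that works in the same degradation complex as HRD1. It was at 32.6, 24.4 and 23.3 CPM in WT, 37.3, 39.1 and 26.7 in LysM-DKO, and 104 and 51.9 in ABCG1KO. Both ABCG1KO libraries were above all 6 others, and they differed from each other 2.00-fold. Herpud1 rose 2.91-fold against WT, a log2 fold change of 1.54 ± 0.301 (SE) at an adjusted p of 0.0132 by edgeR. Without ABCG1KO 1 the log2 fold change was 0.95 (adjusted p = 0.086), and without WT 2 it was 1.47 (adjusted p = 0.0501). None of its 50-base stretches was shared with another gene.

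The 2 degradation genes that passed among the members therefore had opposite directions, and the members Sel1l and Edem1 did not pass. Sel1l, the adaptor that holds HRD1 in its complex, was at 207, 223 and 227 CPM in WT and 179 and 189 in ABCG1KO. Edem1, which recognises mannose-trimmed glycoproteins for degradation, was at 242, 243 and 238 CPM in WT and 205 and 224 in ABCG1KO. Both were without overlap and lower, as was Syvn1, while Herpud1, Pdia6 and Manf were without overlap and higher. Across the 32 members, 4 were higher and 6 lower without overlap, 10 in all, against 23.9%, 24.2% and 48.2% of all genes. Pdia6 was at 291, 229.8 and 160.3 CPM in WT and 365 and 352 in ABCG1KO, with a log2 fold change of 0.66 ± 0.294 (SE) at an adjusted p of 0.166 by edgeR.

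Immediate early genes, which respond quickly to many signals, summed to 1081 to 1297 CPM in WT, 1039 to 1509 in LysM-DKO, and 2855 and 1094 in ABCG1KO. ABCG1KO 1, the library with the high sum, also had the higher Herpud1 and Atf4 and the lower Atf3 and Ddit3 of the 2 ABCG1KO libraries. Its fibroblast markers summed to 137 CPM, against 1126 in ABCG1KO 2. The part of either in the values was not tested.

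**Figure D4:**
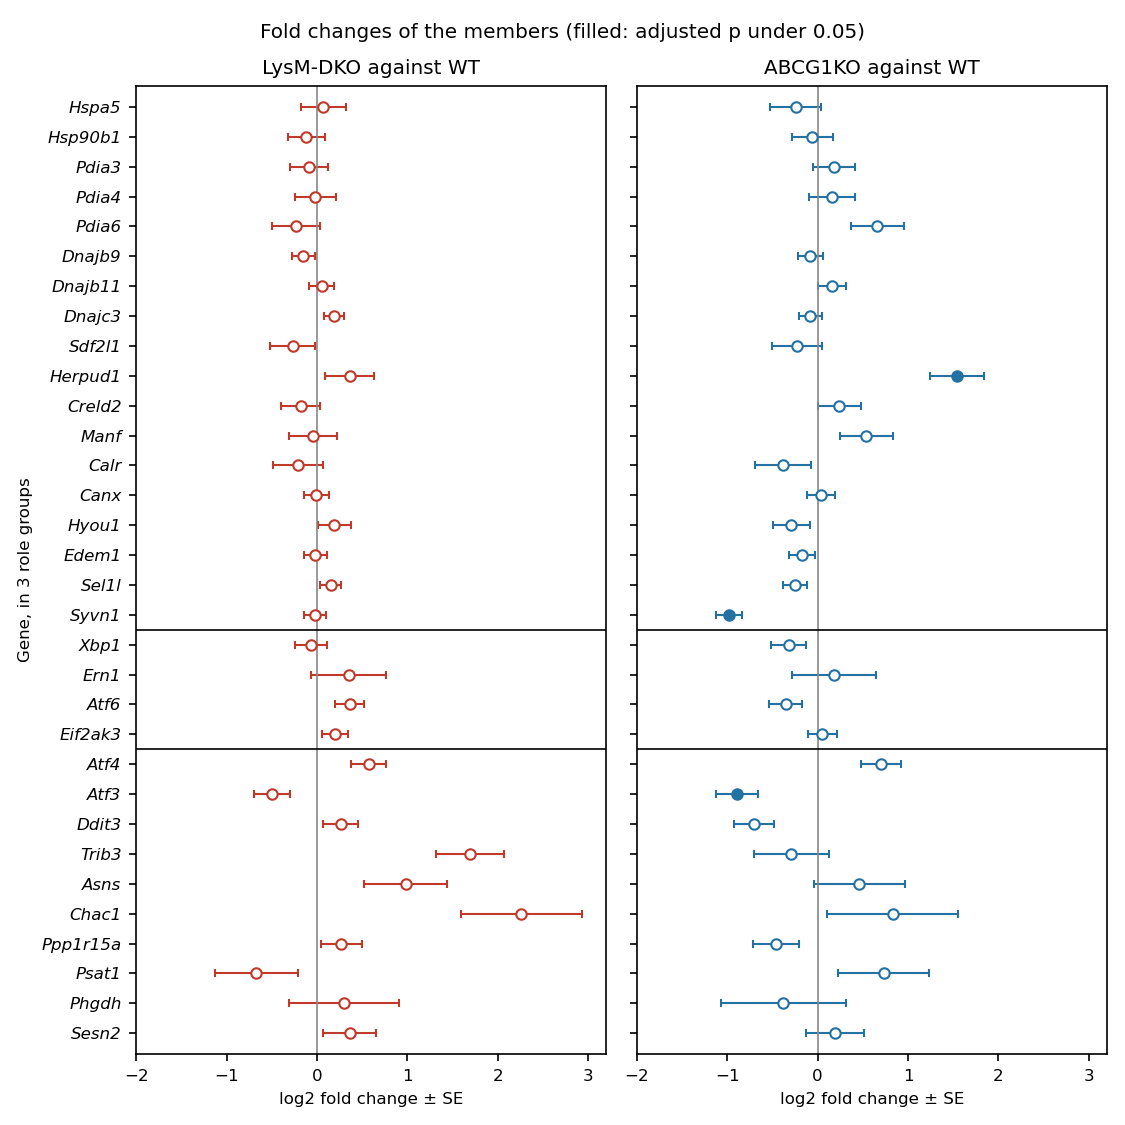
Log2 fold change with its SE (horizontal axis) of the 32 genes (rows, by role) in LysM-DKO (left) and ABCG1KO (right) against the same 3 WT libraries, with filled points where the edgeR adjusted p was under 0.05. In LysM-DKO no point is filled, and in ABCG1KO the filled points are Herpud1 on the right of 0 and Syvn1 and Atf3 on the left.

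LysM-DKO was also compared with ABCG1KO directly. The WT libraries entered only through the low-count filter, the scaling and the estimate of the spread. By edgeR, 5 of the 32 members passed, where 13.4% of all genes did (7.76% higher and 5.64% lower in LysM-DKO). At an unadjusted p under 0.05 there were 10, against 30.9%, and DESeq2 called 8, against 21.6%. Syvn1 (log2 fold change 0.96, SE 0.138, adjusted p = 0.0044), Trib3 (1.98, SE 0.438, adjusted p = 0.0245), Ddit3 (0.96, SE 0.223, adjusted p = 0.0289) and Atf6 (0.71, SE 0.184, adjusted p = 0.0408) were higher in LysM-DKO. Herpud1 was lower (-1.18, SE 0.3, adjusted p = 0.0384). Trib3 and Ddit3 belong to the ATF4 pathway, whose median log2 fold change was 0.60, beside -0.06 for ER folding and 0.03 for all genes. In the ATF4 pathway 8 of 10 members were above 0 in this comparison, against 51.7% of all genes. Without ABCG1KO 1 the ATF4 pathway median was 0.24 and only Syvn1 passed, and Syvn1 alone also passed when LysM-DKO 2 was left out. Without LysM-DKO 1 the members that passed were 2, Syvn1 and Trib3. The LysM-DKO and ABCG1KO changes in Ddit3 against WT had opposite signs, 0.26 and -0.70, and this direct comparison is the test of their difference. Both ABCG1KO libraries had the Y-linked pattern, as did only LysM-DKO 1 among the LysM-DKO libraries. Reads that did not map uniquely were also a larger share in ABCG1KO. The part of either in these calls was not tested.

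Further genes of the same pathways were taken from lists of 30 other ER folding and quality control genes, 21 tested genes of 22 other ATF4 targets, 12 aminoacyl-tRNA synthetases and 12 genes for eIF2, its kinases and its phosphatase. In LysM-DKO against WT, 0 genes of these 4 lists passed edgeR's test. At an unadjusted p under 0.05 there were 2, 4, 4 and 1 genes, against 11.7% of all genes. DESeq2 called 2, 1, 0 and 0, against 2.21% of all genes. The median log2 fold changes were -0.02, 0.08, 0.23 and 0.09. Aminoacyl-tRNA synthetases load amino acids onto tRNA, and several are known ATF4 targets. All 12 had a log2 fold change above 0 in LysM-DKO, from 0.02 to 0.58, where 52.5% of all genes were above 0. In 6 of them every LysM-DKO library was above every WT library, as in 11.0% of all genes. Of the other ATF4 targets, 13 were above 0 in LysM-DKO and 8 below, from -1.01 to 1.31. In 4 of these targets every LysM-DKO library was above every WT library. In 2 every LysM-DKO library was below, as in 9.98% of all genes. In the ER folding and eIF2 lists, 11 of 30 and 10 of 12 genes were above 0. In ABCG1KO, 6 of the 12 synthetases were above 0, with a median of 0.05.

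In ABCG1KO against WT, 5 other ATF4 targets rose and 0 fell, against 7.21% and 8.83% of all genes, and the median of the 21 was 0.75. Slc7a11, the light chain of the cystine-glutamate exchanger, was at 9.73, 15 and 15.8 CPM in WT, 13.9, 10.6 and 18.3 in LysM-DKO, and 70.9 and 63.4 in ABCG1KO. Both ABCG1KO libraries were above all others, and the log2 fold change was 2.31 ± 0.271 (SE) at an adjusted p of 0.0013 by edgeR. Cebpg, a C/EBP factor that pairs with ATF4, rose by a log2 fold change of 1.20 (edgeR adjusted p = 0.0101), from 88.1, 91.8 and 96 CPM in WT to 235 and 189. Nupr1, a stress-induced chromatin protein, and Slc7a5, the light chain of the leucine transporter, also rose, by 2.80 and 2.28 (edgeR adjusted p = 0.0184 and 0.0295). Of the 10 ATF4 pathway members, edgeR called 0 higher and Atf3 lower, and DESeq2 also called Atf4 higher (adjusted p = 0.0281). The difference between the 2 lists was not tested.

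In the direct comparison, 1 other ATF4 target passed as higher in LysM-DKO and 3 as lower, against 7.76% and 5.64% of all genes. The median log2 fold change of the list there was -0.02. Those lower were Slc7a11, Cebpg and Cebpb (-2.23, -1.13 and -1.9, edgeR adjusted p = 0.00177, 0.0148 and 0.0276). The gene that was higher was Slc3a2, the heavy chain shared by both of those amino acid exchangers. It was at 323, 285 and 387 CPM in WT, 627, 526 and 581 in LysM-DKO, and 281 and 355 in ABCG1KO. All LysM-DKO libraries were above all others, with a log2 fold change of 0.86 against ABCG1KO (SE 0.191, edgeR adjusted p = 0.0249).

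Among the 30 other ER folding and quality control genes, 0 rose and 4 fell in ABCG1KO against WT, where 7.21% and 8.83% of all genes did, and the median was 0.02. The 4 are near the number that the share of all genes would give in either direction (16.0%). Wfs1, an ER membrane protein whose loss raises ER stress, was at 384, 529 and 584 CPM in WT, 288, 172 and 167 in LysM-DKO, and 30.8 and 78.5 in ABCG1KO. The 3 groups did not overlap, and the log2 fold change in ABCG1KO was -3.19 ± 0.466 (SE) at an adjusted p of 0.0042 by edgeR. Erlec1 and Edem2, a lectin and a mannosidase-like protein of glycoprotein degradation, fell by 0.69 and 0.83 on the log2 scale, and the oxidase gene Ero1lb by 0.74 (edgeR adjusted p = 0.0102, 0.0201 and 0.0166). Of the 12 eIF2 genes, 2 fell and 0 rose, near the share of all genes in either direction (16.0%). Those that fell were Eif2s2 and Eif2s3x, by 2.03 and 1.83 on the log2 scale (edgeR adjusted p = 0.000792 and 0.00297). Of their 50-base stretches, 10.3% and 34.6% are shared with other genes. The share of reads that did not map uniquely was also higher in ABCG1KO, and its part in these values was not tested. Within LysM-DKO, Eif2s3x was lowest in library 1, the library with Y-linked transcripts, at 62.1 CPM against 87.8 and 105 in libraries 2 and 3. Eif2s2 was at 84.8, 88.6 and 103 CPM in the same order. Sex differed along with genotype between WT and ABCG1KO, and its part in the eIF2 values was not tested.

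The cytosolic heat shock genes, a stress program of another compartment, were a list of 13. In LysM-DKO 0 passed, with a median of -0.06. There were 0 at an unadjusted p under 0.05 and 0 by DESeq2, against 11.7% and 2.21% of all genes. In ABCG1KO 5 fell and 0 rose, against 8.83% and 7.21% of all genes, with a median of -0.59. Hspa8, the constitutive cytosolic HSP70, was at 1535, 1583 and 1525 CPM in WT, 1466, 1346 and 1411 in LysM-DKO, and 102 and 94.9 in ABCG1KO. Shared sequence makes up 39.4% of Hspa8, 47.5% of Hsp90aa1, 20.6% of Dnaja1 and 22.8% of Hspe1, which all fell in ABCG1KO. It makes up 0.00% of the other gene that fell (log2 fold change -0.91, edgeR adjusted p = 0.0248). The part of shared sequence in these values was not tested.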

How the data were processed

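RNA-seq counts per gene symbol were deposited as 1 file per library. The submitters' processing notes name STAR 2.7.9a, TopHat, HTSeq 0.11.2, DESeq2 1.30.1, limma and mm10, without roles. Strand setting and annotation are not given in the sources used here. The 5 counter lines of each file stayed out of library sizes. Among them, reads without a feature were 4.26% to 6.07% in WT and LysM-DKO and 10.2% to 13.8% in ABCG1KO. The part of this difference in the ABCG1KO comparisons was not tested.

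Genes passing edgeR's default low-count filter were normalised by TMM (edgeR 4.0.16, R 4.3.3), and CPM were scaled by TMM. Robust quasi-likelihood tests used 1 fit of 3 groups, with Benjamini-Hochberg adjustment over 13821 genes and calls at 0.05. The code was tested on simulated data. DESeq2 1.42.0, other scaling and filters, a replicate block, fits of 2 groups and leaving out each library were the alternatives. No 2 libraries of a group held identical values. Positions and shared 50-base stretches came from the GENCODE annotation of GRCm38, and promoters from RefSeq.

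The members and lists were chosen with earlier results of these data known. All 32 members could be named, with Hspa5, Xbp1, Atf4, Ddit3, Atf3, Asns and called members in full, and from each other list up to 4 genes called in a comparison. Chac1, Calr, Psat1, Dnajc3, Pdia6, Sel1l and Edem1 were given in full after their values were seen.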

Additional observations from a re-analysis of the deposited data

How the results depend on the processing

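Of the fold changes of all 32 members over the alternatives, 384 of 415 kept their direction and side of the threshold in LysM-DKO against WT, 349 of 383 in ABCG1KO against WT and 341 of 383 in LysM-DKO against ABCG1KO. With library size as the only scaling, the median of all genes moved to 0.17 and 0.25 against WT, the ATF4 pathway median in LysM-DKO to 0.49, the ER folding median in ABCG1KO to 0.17, Syvn1 and Xbp1 in LysM-DKO to 0.13 and 0.08, and Atf4 in ABCG1KO passed (0.93, edgeR adjusted p = 0.0172). DESeq2 called 1, 5 and 8 members in the 3 comparisons. Replicate numbers did not pair the samples (same-numbered WT and LysM-DKO libraries correlated at 0.04, 0.43 and -0.01), and with the replicate block 0, 2 and 1 members were called (Atf3 in ABCG1KO against WT was not, at -0.88 and an edgeR adjusted p of 0.0842). A fit of only LysM-DKO and ABCG1KO called 1. Leaving out 1 library at a time gave 0 to 0, 1 to 5 and 1 to 5 called members, ER folding medians from -0.18 to 0.07, -0.15 to 0.03 and -0.16 to 0.00, and ATF4 pathway medians from 0.29 to 0.46, -0.38 to 0.26 and 0.24 to 0.96. Over all 32 members and all alternatives, 30, 18 and 11 fold changes turned sign in the 3 comparisons. Among the members whose fold changes are printed, signs turned in some fits without 1 library. In LysM-DKO against WT the ranges were -0.44 to 0.03 for Calr and -0.20 to 0.05 for Xbp1 (highest without WT 1), 0.00 to 0.40 for Ppp1r15a (lowest without LysM-DKO 3) and -0.14 to 0.25 for Hspa5 (below 0 without WT 3, at -0.12, or LysM-DKO 3). In ABCG1KO against WT they were -2.41 to 0.41 for Phgdh (above 0 without ABCG1KO 1), and -0.81 to 1.12 for Asns and -0.15 to 1.39 for Chac1 (below 0 without ABCG1KO 2). In LysM-DKO against ABCG1KO they were -0.14 to 0.37 for Sesn2 (below 0 without LysM-DKO 2), -0.02 to 0.30 for Calr (below 0 without LysM-DKO 3), and -0.35 to 0.13 for Atf4, -0.16 to 1.79 for Asns and -0.13 to 2.71 for Phgdh (each turned without ABCG1KO 1). The cause was not tested. At these depths 3 counts are 0.0716 to 0.101 CPM before TMM scaling, below Chac1 in WT at 0.205 to 0.497 CPM.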
